A study of Mus musculus with 12 samples.

Results

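The B cell receptor complex and its proximal signalling machinery were represented by 10 genes: *Cd79a*, *Cd79b*, *Ms4a1*, *Cd22*, *Cr2*, *Fcgr2b*, *Blnk*, *Btk*, *Syk* and *Lyn*. They were found by their Ensembl identifiers in a table of 55536 features, 31696 of which had at least 1 count, and all 10 passed the filter on low counts in each comparison. RNA was sequenced from splenocyte cultures of 3 control mice, which carried a Cre allele active in the B lineage and no floxed *Pdap1*, and 3 Pdap1-deficient mice (Pdap1F/F with the same Cre allele) on the C57BL/6 strain. The labels give no age, and the methods of the paper name 1 age range for all of its mice, matched for age and of both sexes. They also describe isolation of splenic B cells with anti-CD43 beads, a step that depletes T cells and most myeloid cells. Each mouse gave a culture stimulated for 48 h with LPS and IL-4 (LPS-IL-4), which induces class switching to IgG1, and a culture with LPS, BAFF and TGFβ (LPS-BAFF-TGFβ), in which cells switch to IgG2b, so that 12 libraries fell into 4 groups of 3 mice. Every group, controls included, thus carried 1 copy of Cre, and only cells of the B lineage delete the floxed *Pdap1*. In bulk RNA a smaller share of expressing cells and less RNA per cell cannot be told apart.

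The B cell receptor is a membrane immunoglobulin held by the Igα/Igβ dimer, which *Cd79a* and *Cd79b* encode. When antigen binds, the Src family kinase Lyn phosphorylates the tails of the dimer, Syk docks there, and the adaptor Blnk brings Btk and phospholipase Cγ together, which leads to calcium release and transcription. Complement receptor 2 (*Cr2*) lowers the threshold for this signal when complement-tagged antigen binds, whereas Cd22 and the Fc receptor encoded by *Fcgr2b* recruit phosphatases that limit it, and Lyn serves both arms. LPS, the common part of both stimulations, is recognised by Toll-like receptors. Whether its signal also involved this complex in these cultures was not tested.

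The stretch before the start of *Cr2* is shown because this gene differed most between the stimulations, and the one before *Cd22* because that gene moved in the opposite direction. Both come from RefSeq (GRCm38.p6), read 5′ to 3′ on the minus strand, and end at the base before the annotated start: chr1:195176720-195176969 for *Cr2* and chr7:30879029-30879148 for *Cd22*. The RefSeq start of *Cd22* used here lies inside the gene as GENCODE annotates it, where other transcripts start further upstream, and the *Cd22* stretch was limited to 120 bases because the window beyond them overlaps exons of those transcripts. Capitals mark matches, on either strand, to CAGAC (a SMAD box, bound downstream of TGFβ), to CAGGTG (an E box) or to CCCNNGGG (the core of the palindrome bound by EBF1).
Cr2: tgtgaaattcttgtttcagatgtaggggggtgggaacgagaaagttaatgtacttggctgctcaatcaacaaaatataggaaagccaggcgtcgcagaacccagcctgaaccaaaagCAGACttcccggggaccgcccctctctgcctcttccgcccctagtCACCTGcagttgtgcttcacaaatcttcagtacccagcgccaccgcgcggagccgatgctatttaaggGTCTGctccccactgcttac
Cd22: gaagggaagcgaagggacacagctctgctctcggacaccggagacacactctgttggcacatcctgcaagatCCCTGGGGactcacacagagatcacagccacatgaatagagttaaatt
The *Cr2* stretch held CAGAC from base 133 to base 129 before the start and, on the other strand, from base 20 to base 16, and CAGGTG on the other strand from base 88 to base 83, and the *Cd22* stretch held CCCNNGGG from base 48 to base 41 before the start. In the full window of 250 bases *Cd22* also held CAGGTG, on the other strand from base 245 to base 240, so that this E box does not set *Cr2* apart. CAGAC was not particular to *Cr2* among the 10 genes. *Fcgr2b* held it from base 220 to base 216 and from base 47 to base 43, and *Syk* from base 131 to base 127. Among 32851 promoters of 250 bases in the same table, 42.2% held CAGAC, 17.2% CAGGTG and 11.8% CCCNNGGG. RefSeq promoters were found for 7 of the 10 genes. *Cd22* was the single gene among these 7 with the EBF1 letters, and *Blnk* was the single one with the octamer ATTTGCAT, which 1.6% of all promoters held. These matches describe the letters in the window and were not tested for binding.

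*Pdap1* itself was measured first. With LPS-IL-4 it stood at 93.0, 91.4 and 97.8 CPM (counts scaled to a common library total after TMM normalisation) in control mice 1, 2 and 3 and at 23.3, 27.2 and 29.9 in Pdap1-deficient mice 1, 2 and 3, and with LPS-BAFF-TGFβ at 198.8, 80.3 and 100.3 against 26.4, 26.0 and 23.0. The deficient cultures lay below every control culture in both stimulations. Totals ranged from 9386667 to 15869143 counts with LPS-IL-4 and from 4579793 to 69500640 with LPS-BAFF-TGFβ, where control mouse 1 gave the deepest library and the highest *Pdap1* value. All 10 mature B cell markers were present, and their sum was between 3590.4 and 4687.6 CPM in every library. T cell and NK cell marker sums did not exceed 35.8 and 2.02 CPM. The sum of the 9 myeloid and dendritic markers was 32.5 to 37.9 CPM in control and 24.5 to 332.7 in Pdap1-deficient LPS-IL-4 cultures, and 140.4 to 159.0 and 79.0 to 647.5 with LPS-BAFF-TGFβ, with none of the 9 at 0 throughout a group. *Flt3* made up most of the difference between the stimulations in control mice, where its mean was 20.4 CPM in LPS-IL-4 cultures and 124.4 CPM in LPS-BAFF-TGFβ cultures. Both maxima came from Pdap1-deficient mouse 2, with *Lyz2* at 94.0 and 278.1 CPM against at most 5.60 in any control library. Mouse 3 of that genotype also lay above the controls, with *Lyz2* at 9.62 and 40.9 CPM.

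**Figure D1:**
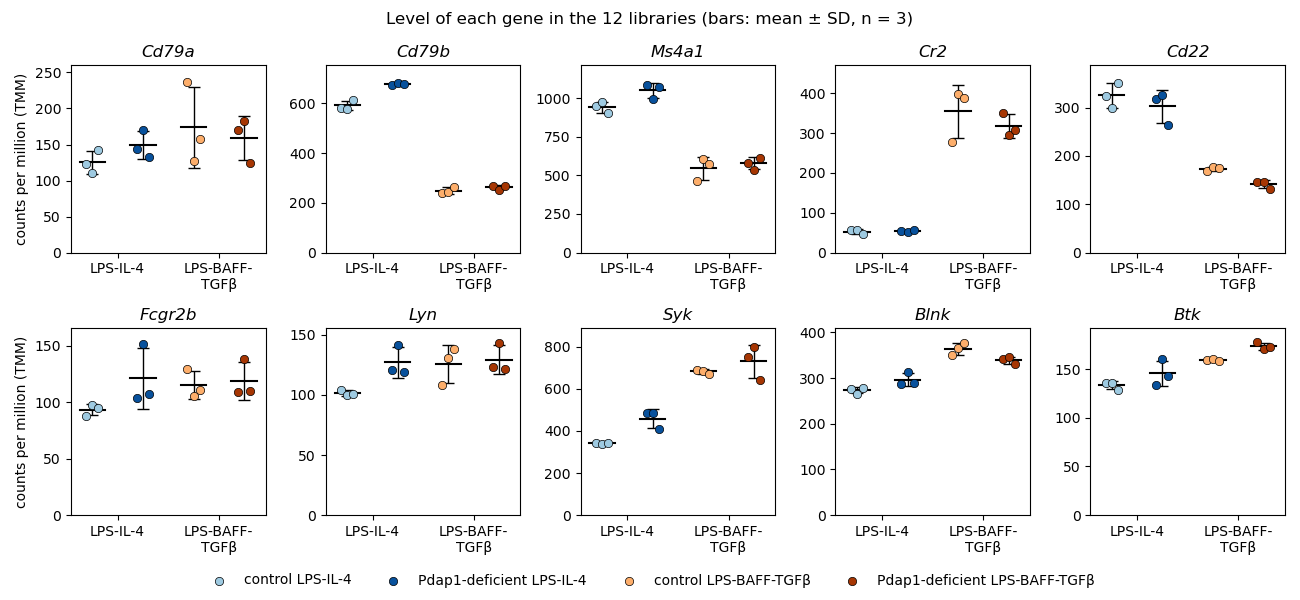
Level of each of the 10 genes in the 12 libraries, in CPM (y axis, from 0), by stimulation (x axis) and genotype (colour); points are mice, and bars give mean ± SD. *Cr2* lies at 45.9 to 56.1 CPM with LPS-IL-4 and at 278.0 to 396.9 with LPS-BAFF-TGFβ, whereas *Cd79b*, *Ms4a1* and *Cd22* lie lower with LPS-BAFF-TGFβ in every culture.

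Stimulation separated these genes into groups that moved in opposite directions. Relative to LPS-IL-4, LPS-BAFF-TGFβ cultures of control mice had more *Cr2*, *Syk* and *Blnk* and less *Cd79b*, *Cd22* and *Ms4a1*. These 6 of 10 genes passed an adjusted p of 0.05 (quasi-likelihood test of edgeR, adjusted over 14882 genes after Benjamini and Hochberg), against 19.3% of all genes tested, 9.99% higher and 9.33% lower. In Pdap1-deficient mice 5 of the 10 passed, *Cr2* and *Syk* higher and *Cd79b*, *Cd22* and *Ms4a1* lower, against 11.5% of all genes, 5.57% higher and 5.89% lower. These fits had no term for the mouse, although the cultures were paired by mouse. With the mouse as a block *Blnk* and *Btk* also passed in Pdap1-deficient mice, where more of all genes passed too. The 10 genes were chosen with earlier results of these data known, so the shares over all genes serve as a description. Over the 10 genes the median log2 fold change was 0.31 in control and 0.06 in Pdap1-deficient cultures (0.03 and 0.00 over all genes). In control mice 6 of the 10 had all LPS-BAFF-TGFβ cultures above all LPS-IL-4 cultures and 3 had them below, where 19.0% and 18.8% of all genes did so. In Pdap1-deficient mice 4 lay above and 3 below without overlap, against 15.0% and 14.1%.

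*Cd79a* and *Cd79b*, the chains of 1 signalling dimer, did not move together. *Cd79b* (ENSMUSG00000040592, chromosome 11 from 106311341 to 106314762, minus strand, GRCm38) was at 582.2, 578.6 and 612.7 CPM in control LPS-IL-4 cultures and at 240.5, 241.6 and 265.3 in control LPS-BAFF-TGFβ cultures. In Pdap1-deficient mice it was at 674.9, 680.8 and 675.3 with LPS-IL-4 and at 266.1, 252.7 and 267.6 with LPS-BAFF-TGFβ. Every LPS-BAFF-TGFβ culture lay below every LPS-IL-4 culture. The log2 fold changes were -1.24 (SE 0.09, adjusted p = 4.11e-05 from edgeR) in control and -1.37 (SE 0.10, adjusted p = 2.34e-05) in Pdap1-deficient mice, a 2.37-fold and a 2.58-fold decrease.

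*Cd79a* (ENSMUSG00000003379, chromosome 7 from 24897381 to 24902197, plus strand) was at 123.4, 110.0 and 142.3 CPM in control LPS-IL-4 cultures and at 236.5, 126.9 and 157.8 in control LPS-BAFF-TGFβ cultures, with the highest value in the deepest library. In Pdap1-deficient mice the values were 144.2, 170.6 and 132.3 with LPS-IL-4 and 169.5, 182.7 and 123.9 with LPS-BAFF-TGFβ. The groups overlapped in both genotypes. The log2 fold changes of 0.48 (95% interval -0.04 to 0.99, adjusted p = 0.191 from edgeR) and 0.09 (-0.26 to 0.44, adjusted p = 0.803) did not pass, and the control value fell to 0.19 without control mouse 1 of LPS-BAFF-TGFβ.

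*Ms4a1* (ENSMUSG00000024673, chromosome 19 from 11249675 to 11266241, minus strand) encodes CD20, a tetraspan protein of the B cell surface. It stood at 947.9, 974.9 and 903.0 CPM in control LPS-IL-4 cultures and at 464.0, 605.3 and 571.6 in control LPS-BAFF-TGFβ cultures. The Pdap1-deficient cultures had 1087.0, 995.6 and 1074.8 CPM with LPS-IL-4 and 580.8, 538.3 and 614.8 with LPS-BAFF-TGFβ. In both genotypes every LPS-BAFF-TGFβ culture was lower, by 0.78 (SE 0.12, adjusted p = 0.00242 from edgeR) and 0.86 (SE 0.11, adjusted p = 0.000658) on the log2 scale.

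Of the coreceptors, *Cr2* (ENSMUSG00000026616, chromosome 1 from 195136811 to 195176716, minus strand) showed the widest difference of the 10. In the mouse this gene encodes both complement receptors 1 and 2 by alternative splicing, and the counts hold both. It was at 55.6, 55.6 and 45.9 CPM in control LPS-IL-4 cultures and at 278.0, 396.9 and 387.8 in control LPS-BAFF-TGFβ cultures. Pdap1-deficient cultures had 55.2, 50.9 and 56.1 CPM with LPS-IL-4 and 350.9, 295.5 and 307.0 with LPS-BAFF-TGFβ. *Cr2* thus rose 6.77-fold in control (log2 2.76, SE 0.17, adjusted p = 1.94e-05 from edgeR) and 5.88-fold in Pdap1-deficient mice (log2 2.56, SE 0.11, adjusted p = 4.68e-06). Follicular dendritic cells also express *Cr2*. Of 5 markers of these cells 4 were matched, with a sum of 3.28 to 4.01 CPM with LPS-IL-4 and 12.3 to 18 with LPS-BAFF-TGFβ. *Pdpn* had no count in any library and *Cxcl13* a mean of at most 0.0053 CPM per group, so that *Vcam1* carried the rise of this sum, from a mean of 0.0275 to 14.3 CPM in control and from 0.268 to 9.18 CPM in Pdap1-deficient cultures.

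*Cd22* (ENSMUSG00000030577, chromosome 7 from 30865402 to 30880342, minus strand), the sialic acid-binding inhibitory coreceptor, was at 324.8, 299.6 and 351.1 CPM in control LPS-IL-4 cultures and at 169.0, 176.4 and 175.3 in control LPS-BAFF-TGFβ cultures. In Pdap1-deficient mice the values were 318.6, 326.2 and 263.6 with LPS-IL-4 and 146.1, 146.8 and 131.9 with LPS-BAFF-TGFβ, below all other groups. Between the stimulations *Cd22* fell by 0.90 (SE 0.09, adjusted p = 0.000268 from edgeR) in control and by 1.1 (SE 0.12, adjusted p = 0.000275) in Pdap1-deficient mice on the log2 scale.

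*Fcgr2b* (ENSMUSG00000026656, chromosome 1 from 170958617 to 170976547, minus strand), the inhibitory receptor for IgG, was at 87.8, 97.1 and 94.6 CPM in control LPS-IL-4 cultures and at 129.3, 105.1 and 111.2 in control LPS-BAFF-TGFβ cultures. The log2 fold change of 0.31 (SE 0.10) did not pass (adjusted p = 0.0673 from edgeR), and without the deepest library it was 0.22 (adjusted p = 0.0385). In Pdap1-deficient mice the groups overlapped, with 104.0, 151.8 and 107.4 CPM against 109.3, 138.5 and 109.6 and a log2 fold change of -0.02 (SE 0.17, adjusted p = 0.954). The extracellular part of this receptor closely resembles that of *Fcgr3*, and how shared reads were counted is not given in the sources used here.

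Of the kinases, *Syk* (ENSMUSG00000021457, chromosome 13 from 52583173 to 52648792, plus strand) rose in both genotypes. It stood at 344.2, 338.1 and 343.8 CPM in control LPS-IL-4 cultures and at 692.4, 687.6 and 671.2 in control LPS-BAFF-TGFβ cultures, a 2.0-fold rise (log2 1.0, SE 0.08, adjusted p = 6.81e-05 from edgeR). Pdap1-deficient cultures went from 485.7, 483.4 and 408.7 to 750.1, 797.2 and 644.4 CPM, a 1.59-fold rise (log2 0.67, SE 0.12, adjusted p = 0.00646). In both genotypes all LPS-BAFF-TGFβ cultures lay above all LPS-IL-4 cultures.

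*Lyn* (ENSMUSG00000042228, chromosome 4 from 3678115 to 3813122, plus strand) was at 104.4, 99.6 and 101.2 CPM in control LPS-IL-4 and at 108.0, 130.5 and 138.2 in control LPS-BAFF-TGFβ cultures. All of the latter were above the former, yet the log2 fold change of 0.30 (SE 0.11) did not pass (adjusted p = 0.0951 from edgeR). Without control mouse 1 of LPS-BAFF-TGFβ, the lowest of its group, it was 0.41 with an adjusted p of 0.000281. In Pdap1-deficient mice *Lyn* was at 120.7, 142.0 and 119.1 CPM with LPS-IL-4 and at 123.1, 143.5 and 121.9 with LPS-BAFF-TGFβ, which overlapped (log2 fold change 0.03, 95% interval -0.23 to 0.29, adjusted p = 0.931).

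*Blnk* (ENSMUSG00000061132, chromosome 19 from 40928927 to 40994535, minus strand), the adaptor downstream of Syk, rose in control cultures from 277.0, 265.4 and 277.9 to 350.3, 366.2 and 376.6 CPM (log2 fold change 0.42, SE 0.08, adjusted p = 0.00883 from edgeR). This call was lost without LPS-IL-4 control mouse 1 or 2 (adjusted p = 0.0585 and 0.0658), where the log2 fold change kept its sign. In Pdap1-deficient mice *Blnk* had 286.6, 313.2 and 289.2 CPM with LPS-IL-4 and 340.9, 346.0 and 331.2 with LPS-BAFF-TGFβ, without overlap, and a log2 fold change of 0.20 (SE 0.10, adjusted p = 0.254). With the mouse as a replicate block the adjusted p for these paired cultures was 0.0255.

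*Btk* (ENSMUSG00000031264, X chromosome from 134542336 to 134583570, minus strand), the Tec family kinase that Blnk brings to the receptor, was at 136.0, 135.9 and 128.5 CPM in control LPS-IL-4 and at 159.8, 160.4 and 158.4 in control LPS-BAFF-TGFβ cultures. Its log2 fold change of 0.26 (SE 0.08) stood just outside the threshold (adjusted p = 0.0523 from edgeR) and passed it without the deepest library (0.27, adjusted p = 0.00646). In Pdap1-deficient mice the values were 134.1, 159.9 and 143.3 with LPS-IL-4 and 177.4, 170.7 and 172.7 with LPS-BAFF-TGFβ. The log2 fold change was 0.25 (SE 0.10, adjusted p = 0.162), and with the mouse as a replicate block it was 0.26 with an adjusted p of 0.0173. The sex of the mice is not in the labels and was not modelled for this X-linked gene.

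**Figure D2:**
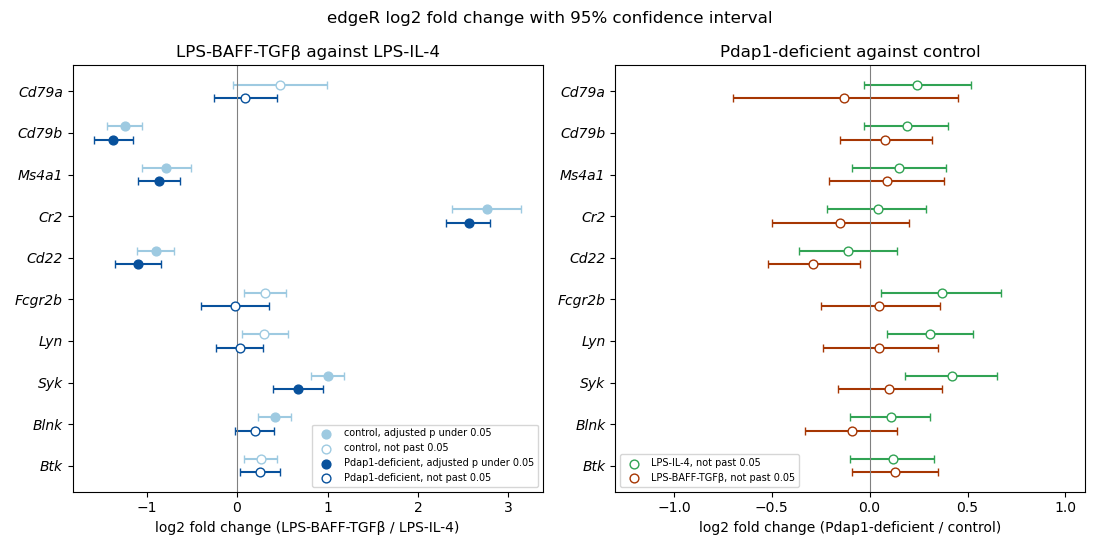
Log2 fold change (x axis) of each gene with its 95% confidence interval from edgeR; filled points passed an adjusted p of 0.05. Left, LPS-BAFF-TGFβ over LPS-IL-4 in control and Pdap1-deficient mice, from -1.37 for *Cd79b* to 2.76 for *Cr2*; right, Pdap1-deficient over control in each stimulation, where every point is open.

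Between the genotypes none of the 10 genes passed the threshold in either stimulation. With LPS-IL-4 9 of the 10 fitted log2 fold changes were above 0, with a median of 0.17 against 0.02 over all genes, and in 6 of the 10 all Pdap1-deficient cultures lay above all control cultures, which held for 15.5% of all genes. None of the 10 had all Pdap1-deficient cultures below, against 16.1%. By edgeR's test 0 of 10 passed where 4.92% of all genes did. An unadjusted p under 0.05 was found for 3 of the 10 and for 3582 of 15074 genes tested. DESeq2's Wald test called 1 of the 10 and 1217 of all genes. With LPS-BAFF-TGFβ the fitted values lay between -0.29 and 0.13 with a median of 0.05 (0.01 over all genes). By edgeR 0 of 10 passed where 0.462% of all genes did (0.455% higher and 0.00710% lower). *Pdap1* itself did not pass here (adjusted p = 0.0929 from edgeR), so a missing call does not show that a gene was unchanged. An unadjusted p under 0.05 was found for 1 of the 10 and for 1486 of 14079 genes tested. DESeq2 called 0 of the 10 and 172 of all genes.

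*Syk* came closest. In LPS-IL-4 cultures its 3 Pdap1-deficient values of 408.7 to 485.7 CPM all lay above the control values of 338.1 to 344.2, a mean of 459.3 ± 43.8 against 342.0 ± 3.38 (SD, n = 3 mice). The log2 fold change was 0.42 (SE 0.11, 95% interval 0.18 to 0.65) with an adjusted p of 0.0505 by edgeR's quasi-likelihood test. Over 14 alternatives the adjusted p ranged from 0.00597 to 0.235, and 7 of them put it past the threshold. Without Pdap1-deficient mouse 2, which carried the most myeloid marker counts, the log2 fold change was 0.39 (adjusted p = 0.00597). Mouse 3 stayed in that fit, and its myeloid marker sum of 61.1 CPM also lay above the 32.5 to 37.9 CPM of the controls. With LPS-BAFF-TGFβ the genotypes overlapped, at 671.2 to 692.4 CPM in control and 644.4 to 797.2 in Pdap1-deficient cultures (log2 fold change 0.10, SE 0.12, adjusted p = 0.751).

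*Fcgr2b* and *Lyn* followed with LPS-IL-4, and in both the highest culture was that of Pdap1-deficient mouse 2. *Fcgr2b* had a log2 fold change of 0.37 (SE 0.14, adjusted p = 0.140 from edgeR), which was 0.19 (adjusted p = 0.159) without that mouse. For *Lyn* the log2 fold change was 0.31 (SE 0.10, adjusted p = 0.0937), or 0.24 (adjusted p = 0.0523) without it. Myeloid cells express *Fcgr2b*, *Lyn* and *Syk* too, and the sum of the 9 myeloid markers in this culture was 332.7 CPM against 24.5 and 61.1 in the other two, although the bead isolation should deplete such cells. The part of these cells in the *Fcgr2b*, *Lyn* and *Syk* values was not tested.

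**Figure D3:**
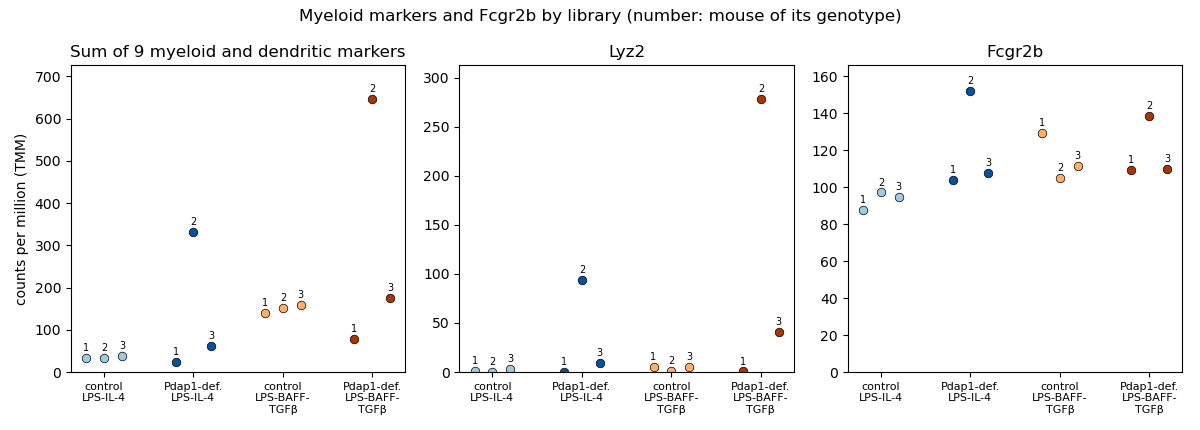
Sum of the 9 myeloid and dendritic markers (left), *Lyz2* (middle) and *Fcgr2b* (right) in CPM (y axis, from 0) for each culture, grouped by genotype and stimulation (x axis); numbers are mice of that genotype. Pdap1-deficient mouse 2 is highest in all 3 panels in both stimulations, with *Fcgr2b* at 151.8 and 138.5.

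For the other 7 genes with LPS-IL-4 the interval of the genotype difference bounds how far the groups could lie apart. *Cd79b* was at 578.6 to 612.7 CPM in control and 674.9 to 680.8 in Pdap1-deficient cultures, without overlap (log2 fold change 0.19, 95% interval -0.03 to 0.40, adjusted p = 0.280 from edgeR). *Ms4a1* and *Blnk* also did not overlap, with fitted values of 0.15 (-0.09 to 0.39) and 0.11 (-0.10 to 0.31). *Cd79a*, *Btk*, *Cr2* and *Cd22* overlapped, with 0.24 (-0.03 to 0.52), 0.12 (-0.10 to 0.33), 0.04 (-0.22 to 0.29) and -0.11 (-0.36 to 0.14).

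With LPS-BAFF-TGFβ *Cd22* had the smallest unadjusted p of the 10 between genotypes. All Pdap1-deficient cultures, at 131.9 to 146.8 CPM, lay below the control cultures at 169.0 to 176.4, and the log2 fold change was -0.29 (SE 0.10, 95% interval -0.52 to -0.05), which did not pass the adjustment (adjusted p = 0.403 from edgeR). *Blnk* lay lower without overlap (-0.09, -0.33 to 0.14) and *Btk* higher (0.13, -0.09 to 0.35). Of the 10 genes 2 were thus below and 1 above without overlap, where 9.08% and 9.55% of all genes were. The other 7 overlapped, and the widest interval was that of *Cd79a* (-0.13, -0.70 to 0.45).

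Whether the genotype difference depended on the stimulation was tested over all 12 libraries. The main fit had no term for the mouse, although the cultures were paired by mouse. All 10 fitted terms were negative, with a median of -0.21 (-0.04 over all genes), so the genotype difference was fitted lower with LPS-BAFF-TGFβ, although that of *Btk* changed sign under other settings. By edgeR 0 of 10 passed, and 0% of all genes did. With the mouse as a block 0 of the 10 passed as well. *Syk* alone of the 10 had an unadjusted p under 0.05 (-0.33, SE 0.15, adjusted p = 0.983 from edgeR), as did 755 of 15794 genes tested. DESeq2 called 0 of the 10 and 6 of all genes. For *Cr2* the term was -0.20 (95% interval -0.61 to 0.21) and for *Cd79b* -0.12 (-0.38 to 0.14).

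Levels were compared between genes per kilobase of annotated exon. In control LPS-IL-4 cultures the order by mean CPM per kilobase ran from *Cd79b* (413.1 ± 13.1, SD, n = 3 mice) over *Ms4a1* (152.2 ± 5.87), *Cd79a* (85.9 ± 11.1), *Cd22* (64.5 ± 5.10), *Blnk* (45.6 ± 1.17), *Btk* (42.4 ± 1.36), *Syk* (36.5 ± 0.361), *Lyn* (25 ± 0.609) and *Fcgr2b* (16.1 ± 0.835) to *Cr2* (6.45 ± 0.688), and no neighbours in it overlapped. In Pdap1-deficient LPS-IL-4 cultures the ranges of *Blnk*, *Syk* and *Btk* overlapped. With LPS-BAFF-TGFβ *Cd79b* was still first, at 174.1 ± 9.80 in control cultures, but *Cd79a* came next, at 119.2 ± 38.8, and overlapped with *Ms4a1* at 88.4 ± 11.9. *Syk* rose to rank 4 at 73.0 ± 1.19, *Cr2* to rank 7 at 43.7 ± 8.16, and *Cd22* went from rank 4 to rank 8 at 34.4 ± 0.796, where the ranges of *Cr2* and *Cd22* and those of *Cd22* and *Lyn* overlapped. *Fcgr2b* was last at 19.9 ± 2.18. The order depended on the gene length used, and 14 of the 40 ranks moved with the longest transcript in place of all exons. *Ms4a1* then had the highest mean with LPS-BAFF-TGFβ in both genotypes, at 177.9 against 174.1 for *Cd79b* in control cultures, with overlapping ranges. In control cultures *Cd79a* went to rank 4 and *Syk* to rank 3 with LPS-BAFF-TGFβ, and *Syk* to rank 5 with LPS-IL-4.

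**Figure D4:**
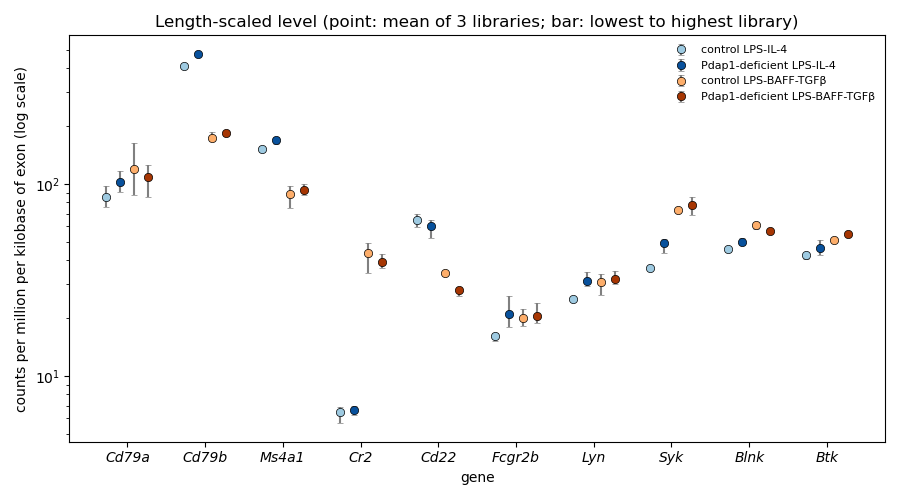
CPM per kilobase of exon (y axis, log scale) for each gene (x axis); points are means of 3 mice, colours the 4 groups, and bars run from the lowest to the highest mouse. *Cd79b* is first in all 4 groups, and *Cr2* moves from last with LPS-IL-4 (6.45 in control) to rank 7 with LPS-BAFF-TGFβ (43.7).

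The pathway around these genes was followed with 5 lists of 86 further genes. These lists were chosen with earlier results of these data known, so a count above the share over all genes describes them and is not a test. Between the stimulations 28 of 82 tested genes were higher and 14 lower in control LPS-BAFF-TGFβ cultures, and 15 and 14 of 83 in Pdap1-deficient ones, where 9.99%, 9.33%, 5.57% and 5.89% of all genes were. Of these genes 10 changed in the same direction by at least 2-fold in both genotypes, 7 higher and 3 lower. *Ighd*, the δ heavy chain constant gene of the naive B cell receptor, fell by 1.15 on the log2 scale in control and by 1.74 in Pdap1-deficient mice; its reads and those of *Ighm* come partly from shared primary transcripts. Among the kinases, *Blk*, a Src family member of B cells, rose by 1.47 and 1.28 and *Prkcb*, protein kinase Cβ that Btk and calcium signals feed into, by 1.69 and 1.41. Among effectors *Rasgrp3*, a Ras activator downstream of phospholipase Cγ, rose by 2.99 and 2.14, and the adaptor gene *Sh3bp2* fell by 1.53 and 1.58. In the inhibitory list *Cd72*, a coreceptor that recruits a phosphatase, rose by 2.62 and 2.41, from 49.0 ± 1.51 to 301.0 ± 51.7 CPM in control cultures (SD, n = 3 mice). *Cblb*, a ubiquitin ligase that restrains receptor signalling, rose by 2.14 and 1.65, the inhibitory receptor genes *Btla* by 1.52 and 1.88 and *Ceacam1* by 1.31 and 1.08. The early response gene *Nr4a3* fell by 2.0 and 1.86.

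By list, the inhibitory receptors and phosphatases had 11 higher and 2 lower of 21 in control mice, with a median log2 fold change of 0.77, and 7 and 3 of 22 in Pdap1-deficient mice, with a median of 0.49 (0.03 and 0.00 over all genes). The receptor-induced early genes had 1 higher and 4 lower of 8, and 0 and 4 of 8, with medians of -0.42 and -0.60. The kinases had 6 higher and 2 lower of 14, and 4 and 2 of 14. The adaptors and effectors had 8 and 4 of 32, and 3 and 2 of 32. The receptor chains and coreceptors had 2 and 2 of 7, and 1 and 3 of 7. Over all genes 9.99% were higher and 9.33% lower in control mice, and 5.57% and 5.89% in Pdap1-deficient mice. The 3 and 2 of 32 adaptors and effectors in Pdap1-deficient mice lay near these shares.

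Between the genotypes, 11 of the 82 tested pathway genes were higher and 0 lower in Pdap1-deficient LPS-IL-4 cultures, against 2.79% and 2.12% of all genes, with a median log2 fold change of 0.22 (0.02 over all genes). This count is not independent of the data, because earlier results were known when the lists were chosen. In the same comparison the 5 tested myeloid and dendritic markers had a median log2 fold change of 2.78. They varied widely between mice, with *Lyz2* at 0.0778, 94.0 and 9.62 CPM in Pdap1-deficient mice 1, 2 and 3 (log2 fold change 4.37, SE 2.19). With this spread the test could not decide whether myeloid cells differed, and 0 of the 5 passed in edgeR, also at an unadjusted p under 0.05. Pdap1-deficient mouse 2 had the highest value of its group in 8 of the 11 genes, and all 11 were also higher without it. That fit kept mouse 3, whose sum of the 9 myeloid and dendritic markers (61.1 CPM) also lay above the controls (at most 37.9 CPM). The part of myeloid cells in the 11 genes was not tested. *Sla*, an adaptor that dampens antigen receptor signalling, rose most, from 33.1, 32.5 and 37.6 to 95.3, 113.5 and 83.3 CPM (log2 fold change 1.49, SE 0.13, adjusted p = 0.000258 from edgeR). *Pik3cg*, a catalytic subunit of phosphoinositide 3-kinase, rose by 1.36, *Ptpn22*, a phosphatase acting on Src and Syk family kinases, by 1.17, and *Cd38* by 1.16. *Rasgrp3* rose by 0.96, the calcium channel gene *Itpr2* by 0.81, *Ighd* by 0.64, the activation marker *Cd69* by 0.63, the Src family kinase gene *Fyn* by 0.55, the inhibitory lectin gene *Siglecg* by 0.53 and *Prkcb* by 0.41 (adjusted p between 0.00138 and 0.0413 from edgeR). The count of higher genes was between 3 and 20 with 1 culture left out, 3 without control mouse 2 or 3, 4 without control mouse 1, 5 without Pdap1-deficient mouse 3 and 20 without Pdap1-deficient mouse 2. With LPS-BAFF-TGFβ *Sla* alone of 81 passed, from 21.7, 20.8 and 21.9 to 36.9, 55.1 and 40.6 CPM (log2 fold change 1.05, SE 0.17, adjusted p = 0.0320), where 0.455% of all genes were higher. This call was lost in 5 of the 6 fits that left out 1 culture. In the interaction test 0 of 83 passed, and 18 had an unadjusted p under 0.05, as did 755 of 15794 genes tested.

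**Figure D5:**
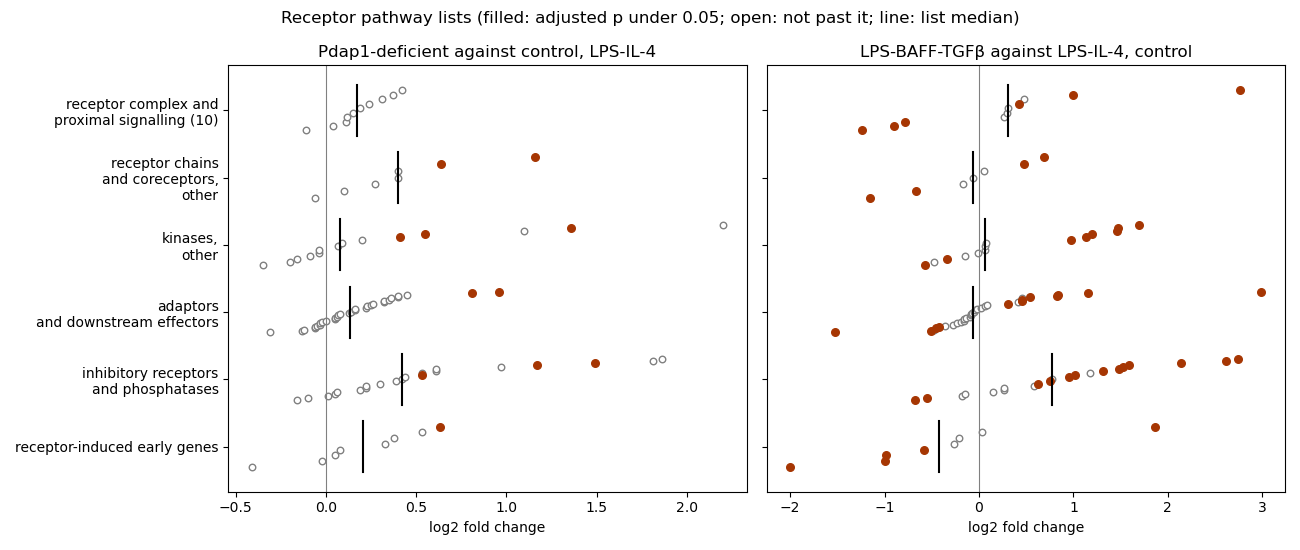
Log2 fold change (x axis) of each tested gene of the 10 and of the 5 wider lists (y axis); filled points passed an adjusted p of 0.05 in edgeR and black lines are list medians. Left, Pdap1-deficient over control with LPS-IL-4, where 11 genes of the wider lists are higher and 0 lower; right, LPS-BAFF-TGFβ over LPS-IL-4 in control mice, where 28 are higher and 14 lower.

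Genes of the marker lists for B cell state and for other cell types moved as well. With LPS-IL-4 *Fcer2a*, which encodes CD23, was lower in Pdap1-deficient cultures by 0.92 (adjusted p = 0.00214 from edgeR), *Prdm1*, the plasma cell regulator, was higher by 1.82 (adjusted p = 0.000323) and *Slamf7* lower by 0.48 (adjusted p = 0.0470). These were 0 higher and 1 lower of 10 mature B cell markers, and 1 and 1 of 7 tested plasmablast and plasma cell markers. Over all genes 2.79% were higher and 2.12% lower. Relative to LPS-IL-4, LPS-BAFF-TGFβ cultures of both genotypes had less *Fcer2a* (-1.48 in control and -1.08 in Pdap1-deficient mice), *Prdm1* (-1.11 and -2.68), *Xbp1* (-1.56 and -1.60) and *Slamf7* (-1.13 and -1.12), and more *Fcrla* (3.19 and 2.49). In each genotype 3 of the 10 mature B cell markers were higher and 3 lower. Of 7 tested plasmablast and plasma cell markers 1 was higher (*Irf4*, 0.35) and 5 lower in control mice, and 0 and 3 in Pdap1-deficient mice. Over all genes 9.99% and 9.33% were, and 5.57% and 5.89%. The dendritic marker *Flt3* (2.61 and 2.21) and the follicular dendritic marker *Vcam1* (8.66 and 5.08) were also higher. Their part in the levels of the receptor genes was not tested.

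For each of the 10 the gene outside them with the most similar profile was taken by Pearson's r of log2 CPM over the 12 libraries among 15784 genes, as a description. The libraries share 6 mice and 2 stimulations, so genes that differ between the stimulations score high. The profile nearest to *Cr2* was that of *Cdc42ep3* (r = 0.996), nearest to *Cd79b* that of *Smad3* (r = 0.995), to *Ms4a1* that of *Itsn2* (r = 0.995), to *Cd22* that of *Fgd2* (r = 0.986) and to *Syk* that of *Tln1* (r = 0.985). *Blnk* lay nearest to *Cd80* (r = 0.976), *Btk* to *Prr5l* (r = 0.975), *Lyn* to *Gm11084* (r = 0.969), *Fcgr2b* to *Arhgap45* (r = 0.960) and *Cd79a* to *Taok2* (r = 0.948). *Smad3*, an effector of TGFβ receptors, had means of 29.2 and 32.8 CPM in control and Pdap1-deficient LPS-IL-4 cultures and of 11.3 and 12.8 with LPS-BAFF-TGFβ.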

How the data were processed

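Total RNA was sequenced from 12 splenocyte cultures of 6 mice, paired by mouse across the stimulations according to the description of the series. In the labels CH12 stands as a cell line beside an mRNA kit. The methods of the paper give splenic B cells and ribosome-depleted total RNA instead, which was followed here. The authors trimmed reads with Trim Galore 0.6.1, mapped them to GRCm38 with STAR 2.6 and counted them per Ensembl gene with HTSeq 0.9.1, per the submitters' processing notes, and deposited raw counts. The annotation release and the strand setting of the counting are not given in the sources used here. *Cd22*, *Fcgr2b* and *Lyn* have exons that overlap the antisense genes *Gm29439*, *Gm38204* and *Gm26857* (0, 232 and 2782 counts over all libraries), whose reads cannot be told apart without that setting. A second table deposited by the authors holds a normalized signal, which equalled the counts over a size factor for each library (relative spread at most 1.9e-15), and was used as a check of the first.

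Symbols, positions and exon lengths came from GENCODE M21, which named all 55536 features. Counts were filtered with filterByExpr, scaled with TMM and tested in edgeR 4.0.16 (R 4.3.3, limma 3.58.1) by its robust quasi-likelihood F test within each stimulation, within each genotype, and over all 12 libraries for the genotype by stimulation term, with Benjamini-Hochberg adjustment over all genes tested and a threshold of 0.05. The main fits had no term for the mouse, also where cultures of the same mice were compared. The standard error (SE) was the log2 fold change divided by the square root of F. Log2 CPM used a prior count of 2. The median biological coefficient of variation was 17.2% to 20.9%. The steps were checked on simulated data. Alternatives were DESeq2 1.42.0, its size factors in edgeR, no filter, at least 10 counts in every library, immunoglobulin genes left out, counts thinned to the total of the smallest library, a block for the replicate number, 1 fit over all 12 libraries, each culture left out in turn, and the longest transcript as gene length. In the interaction test both cultures of each mouse were left out in turn instead of single cultures. Leaving out control mouse 1 of LPS-BAFF-TGFβ in the interaction test and Pdap1-deficient mouse 2 in its stimulation comparison was chosen after seeing the data. Deviations from the group means of the 2 cultures of a mouse correlated with r of -0.18, 0.34 and -0.02 in control and 0.58, 0.62 and 0.29 in Pdap1-deficient mice. Named genes were the 10 genes, *Pdap1*, listed genes past the threshold between genotypes or at least 2-fold changed by stimulation in both genotypes, and the gene with the nearest profile. The 10 genes and all lists were chosen with earlier results of these data known. Figures were drawn with matplotlib 3.10.9.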

Additional observations from a re-analysis of the deposited data

How the results depend on the processing

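The directions of the calls between stimulations held for *Cr2*, *Syk*, *Cd79b*, *Cd22* and *Ms4a1*, which passed under all 14 alternatives in control and all 15 in Pdap1-deficient mice. For the comparisons below the cause of a changed value was not tested, beyond the smaller number of samples where a culture was left out. Between genotypes with LPS-IL-4, where 0 of the 10 genes passed, 1 (*Syk*) passed with DESeq2, with at least 10 counts in every library, with all 12 libraries in 1 fit, without immunoglobulin genes and after thinning, and 2 (*Syk* and *Fcgr2b*) without a filter. Of the wider pathway genes 17 were higher with DESeq2 and 18 without a filter instead of 11, and 1 was lower with DESeq2 instead of 0. Over all genes 1217 passed with DESeq2 and 1694 without a filter instead of 741. With LPS-BAFF-TGFβ 172 genes passed with DESeq2, 257 without a filter and 133 with all 12 libraries in 1 fit instead of 65, and without a filter the log2 fold changes of *Fcgr2b* and *Lyn* were both -0.01 instead of 0.05. Without a filter that of *Lyn* between stimulations in Pdap1-deficient mice was -0.0043 instead of 0.03. In the interaction test 6 genes passed with DESeq2 and 1 without a filter instead of 0, and the *Btk* term, fitted at about 0, was 0.01 with DESeq2 and 0.0044 with its size factors in edgeR.

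The replicate block moved the count of genes passing most in the stimulation comparison of Pdap1-deficient mice, the set in which both cultures of every mouse deviated together. There 3854 genes passed instead of 1675, 4 of the 10 genes were higher instead of 2 (*Blnk* and *Btk* in addition), and 24 wider pathway genes were higher and 23 lower instead of 15 and 14. Between genotypes the replicates share only a number, and with LPS-BAFF-TGFβ the block left 0 wider pathway genes higher instead of 1. It changed no other call on the 10 genes.

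With 1 culture left out, 0 to 1 of the 10 genes was higher between genotypes with LPS-IL-4 (*Syk*, without Pdap1-deficient mouse 2), 3 to 20 wider pathway genes were higher and 0 to 1 lower, and the genes that passed numbered 69 to 1759, lowest without the culture of control mouse 2 and highest without that of Pdap1-deficient mouse 1. With LPS-BAFF-TGFβ 0 to 1 wider pathway gene was higher and 19 (without control mouse 3) to 116 (without control mouse 1) genes passed. Between stimulations in control mice 2 (without LPS-IL-4 mouse 1 or 2) to 6 (without LPS-BAFF-TGFβ mouse 1) of the 10 were higher, 8 to 22 wider pathway genes were lower and 1608 to 4858 genes passed, the extremes being without LPS-IL-4 mouse 2 or 1 and without LPS-BAFF-TGFβ mouse 1. In Pdap1-deficient mice 12 to 24 wider pathway genes were higher, 9 to 18 lower and 908 to 2398 genes passed, with 24 higher without LPS-IL-4 mouse 2, 9 lower without LPS-BAFF-TGFβ mouse 3, 908 genes without LPS-BAFF-TGFβ mouse 1, and 18 lower and 2398 genes without both cultures of mouse 2, a choice made after seeing the data. Log2 fold changes that did not pass and changed sign ran from -0.06 to 0.09 (*Cr2*, genotype, LPS-IL-4), from -0.31 to 0.15 (*Cd79a*), -0.03 to 0.17 (*Ms4a1*), -0.09 to 0.14 (*Fcgr2b*) and -0.05 to 0.12 (*Lyn*) between genotypes with LPS-BAFF-TGFβ, and from -0.02 to 0.25 (*Cd79a*), -0.15 to 0.17 (*Fcgr2b*) and -0.05 to 0.11 (*Lyn*) between stimulations in Pdap1-deficient mice. The *Btk* interaction term also changed sign, from -0.05 to 0.07. There both cultures of a mouse were left out, or that of control mouse 1 with LPS-BAFF-TGFβ alone. Thinning every library to the smallest total left 58 genes passing between genotypes with LPS-BAFF-TGFβ instead of 65, and 651 with LPS-IL-4 instead of 741.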
